A study of Homo sapiens with 8 samples.

Results

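The genes described here encode proteins for the uptake of long-chain fatty acids, their transport in the cytosol or their activation. The 10 members were chosen by symbol from the 23346 genes of the series' count table: CD36, FABP3, FABP4, FABP5, SLC27A1, SLC27A3, SLC27A4, ACSL1, ACSL3 and ACSL4. All 10 were found. The samples were 8 replicates of hCMEC/D3, an immortalised clonal line of human brain microvascular endothelial cells widely grown to model the barrier between blood and brain. They carried no treatment in the labels, polyadenylated RNA was sequenced from each, and they formed 1 group, so no comparison between conditions was possible. The line was immortalised with the telomerase catalytic subunit and a viral large T antigen, and all 8 libraries share this. The labels do not say whether the replicates came from separate cultures, so p-values measure only the spread between these libraries, which may be technical.

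Long-chain fatty acids reach a cell bound to albumin or released from lipoproteins. CD36, a membrane scavenger receptor, and the fatty acid transport proteins of the SLC27A family aid their entry, and the SLC27A proteins also join fatty acids to coenzyme A. Fatty acid binding proteins (FABP) carry them through the cytosol, and the long-chain acyl-CoA synthetases (ACSL) form the acyl-CoA that keeps them in the cell and commits them to oxidation, storage or membrane lipids. Brain endothelium passes essential fatty acids on to the brain, and FABP5 and the carrier MFSD2A are known there for the uptake of docosahexaenoic acid.

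The level of a gene is given as CPM, which is the count relative to the TMM-scaled library size, and as RPKM, which is CPM per kilobase of the reference transcript. Levels of different genes are read per length, and CPM without length correction enters a comparison of genes only as an alternative setting. In the bulk RNA used here, fewer cells that express a gene and less of its RNA per cell cannot be told apart. Total counts ranged from 69388544 to 90205244 per library, and since every count was even, from 34694272 to 45102622 read pairs. Libraries differed in a way that followed transcript length and GC content. Over 11587 detected genes, the deviation of log2 CPM from a gene's mean changed by between -0.29 (replicate 8) and 0.13 (replicates 4 and 6) per doubling of length. It changed by between -0.15 (replicate 3) and 0.28 (replicate 8) per 10 percentage points of GC. On the authors' CQN values, which are log2 levels normalised for length and GC content, the same slopes lay between -0.04 and 0.02 for length and between -0.03 and 0.02 for GC. These slopes concern differences between libraries. Whether CQN values of different genes compare per length is not given in the sources used here.

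At a level of at least 1 CPM in all 8 libraries, which was called detected, 8 of the 10 members were found, against 51.3% of all listed genes. CD36 and FABP4 were below 1 CPM in every library. ACSL3, ACSL4 and SLC27A4 had the highest mean RPKM of the members. Each family was led by 1 or 2 of its members: SLC27A4 among the transport proteins, FABP5 among the binding proteins, and ACSL3 together with ACSL4 among the synthetases.

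**Figure D1:**
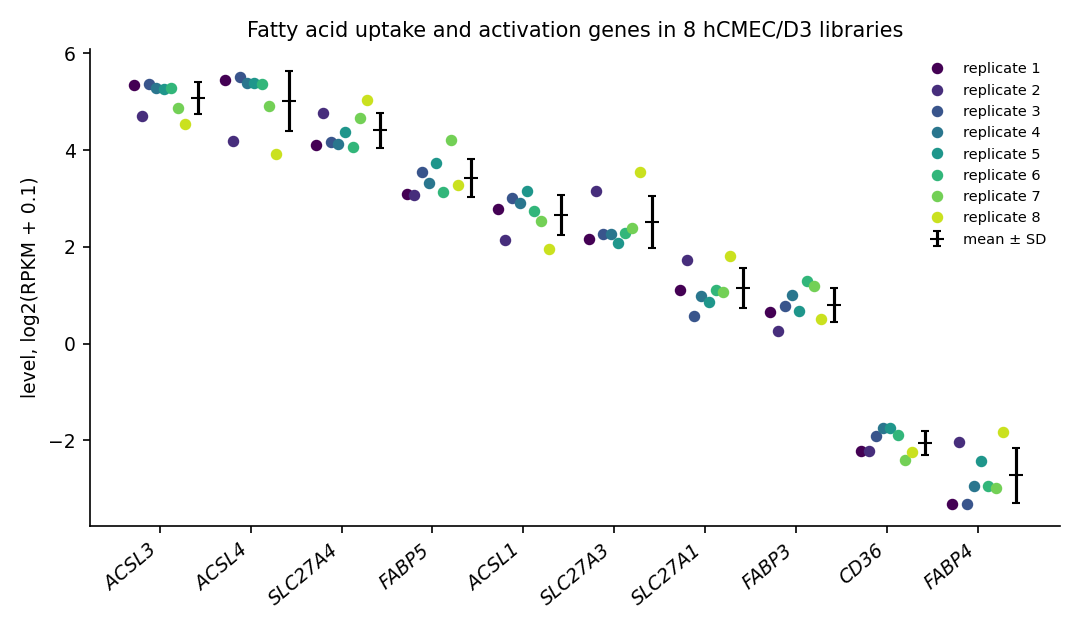
Level of each of the 10 genes as log2(RPKM + 0.1) on the y axis, with 1 point per library and the mean ± SD (n = 8) beside it, ordered by mean. ACSL3 and ACSL4 lie highest, and CD36 and FABP4 lie far below the other members in all 8 libraries.

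The regions just upstream of the start sites are shown for the 2 highest SLC27A genes and the 2 highest ACSL genes, because these 4 genes supply most of their families' RNA. The 2 families deviated in opposite directions in replicates 2 and 8 on log2 CPM. SLC27A1 and ACSL1 deviated as their families did and are not shown. Any relation of these regions to the deviations was not tested. Each is the 250 bases upstream of the start site from RefSeq, on GRCh38.p14 and on the gene's own strand, at chr9:128340277-128340526 (plus) for SLC27A4, chr1:153775157-153775406 (plus) for SLC27A3, chr2:222860786-222861035 (plus) for ACSL3 and chrX:109733258-109733507 (minus) for ACSL4. Capitals mark GC boxes (GGGCGG on either strand), the motif of Sp1-type factors.
SLC27A4: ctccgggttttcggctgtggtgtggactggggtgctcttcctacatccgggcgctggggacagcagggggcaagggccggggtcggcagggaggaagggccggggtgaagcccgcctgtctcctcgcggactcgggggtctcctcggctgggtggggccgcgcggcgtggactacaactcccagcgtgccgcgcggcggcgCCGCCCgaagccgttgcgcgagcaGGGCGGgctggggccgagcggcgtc
SLC27A3: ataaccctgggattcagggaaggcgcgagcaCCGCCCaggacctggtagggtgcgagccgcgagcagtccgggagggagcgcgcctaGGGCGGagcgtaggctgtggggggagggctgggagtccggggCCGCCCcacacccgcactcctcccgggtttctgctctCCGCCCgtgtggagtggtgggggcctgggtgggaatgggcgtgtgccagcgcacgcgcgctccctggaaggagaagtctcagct
ACSL3: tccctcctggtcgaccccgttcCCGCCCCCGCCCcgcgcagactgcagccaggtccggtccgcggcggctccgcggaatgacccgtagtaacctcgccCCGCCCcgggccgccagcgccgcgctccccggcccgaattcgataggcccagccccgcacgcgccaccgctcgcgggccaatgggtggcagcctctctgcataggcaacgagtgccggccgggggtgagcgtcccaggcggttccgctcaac
ACSL4: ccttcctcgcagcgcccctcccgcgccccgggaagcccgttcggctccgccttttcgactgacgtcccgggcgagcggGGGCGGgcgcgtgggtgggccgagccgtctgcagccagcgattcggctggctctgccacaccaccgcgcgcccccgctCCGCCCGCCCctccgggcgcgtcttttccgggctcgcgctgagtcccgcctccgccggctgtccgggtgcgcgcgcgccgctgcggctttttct
All 4 regions were GC-rich, with 75.2% GC for SLC27A4, 71.2% for SLC27A3, 75.2% for ACSL3 and 77.2% for ACSL4, against a median of 58.0% over 35116 promoters of the same length. They held 2, 4, 3 and 3 GC boxes, some of which adjoin or overlap in the ACSL genes, and 42.6% of all promoters held at least 1. A nuclear receptor half-site (AGGTCA on either strand), the element that PPAR and RXR proteins bind, was in 12.1% of all promoters and in none of these 4, and a TATA box (TATAAA on either strand) was in 10.7% and in none of these 4. A match is a run of letters and not a shown binding site.

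Among the proteins of the cell surface, CD36 (chromosome 7, 80231504 to 80308593 on hg19, plus strand, 15 exons in the reference transcript) was barely present. Its level was 0.414 CPM in the lowest library, 0.646 at the median and 0.909 in the highest (mean 0.669 ± 0.193, SD, n = 8). This was above the 0.0665 to 0.0880 CPM that 3 read pairs would give in these libraries. CD36 thus had reads in all 8 libraries, from 34 to 70 counts. By mean RPKM 0.0863% of detected genes lay lower, a place that largely follows from the rule for detection, which CD36 did not pass.

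SLC27A4 (chromosome 9, 131102839 to 131123749, plus strand, 13 exons), which encodes FATP4, a transport protein with very-long-chain acyl-CoA synthetase activity, was the leading transport protein. Its level ranged from 53.5 to 105.5 CPM with a median of 62.0 (mean 70.45 ± 19.0, SD, n = 8), or 21.8 ± 5.88 RPKM, and 69.05% of detected genes had a lower mean RPKM. The highest libraries were replicates 8 and 2, followed by replicate 7. SLC27A3 (chromosome 1, 153747768 to 153752633, plus strand, 10 exons), which encodes a family member best known for its synthetase activity, ranged from 9.485 to 26.6 CPM with a median of 10.9 (mean 13.8 ± 6.17). Replicates 8 and 2 stood highest at 26.6 and 20.1 CPM, while the other 6 libraries lay between 9.485 and 11.8 CPM. SLC27A1 (chromosome 19, 17581300 to 17616977, plus strand, 12 exons), which encodes the insulin-responsive FATP1, ranged from 4.875 to 11.9 CPM with a median of 7.12 (mean 7.78 ± 2.50). Replicates 8 and 2 were again the highest, at 11.9 and 11.3 CPM, and the other 6 lay between 4.875 and 7.22 CPM.

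Per length, SLC27A4 made up 73.1% ± 3.54 of the summed RPKM of the 3 SLC27A genes, SLC27A3 19.55% ± 2.95 and SLC27A1 7.40% ± 1.16 (SD, n = 8). The order was the same in all 8 libraries. SLC27A4 exceeded SLC27A3 by a log2 ratio of RPKM of 1.895 ± 0.28 (SD), and SLC27A3 exceeded SLC27A1 by 1.36 ± 0.24, each in every one of the 8 libraries (adjusted p = 0.00925, raw p = 0.00781, exact permutation test that flips the signs of the library differences, two-sided). That raw p is the lowest that 8 libraries allow, and adjustment ran over all 45 pairs of members.

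Of the cytosolic carriers, FABP5 (chromosome 8, plus strand, 4 exons), the epidermal-type binding protein, ranged from 5.61 to 12.4 CPM with a median of 6.58 (mean 7.43 ± 2.325, SD, n = 8), or 11 ± 3.44 RPKM. Replicate 7 was highest and replicate 5 next at 8.97 CPM. FABP5 has processed pseudogenes, and how shared reads were counted is not given in the sources used here, so its level is uncertain. The 1 such pseudogene that was looked up by symbol, FABP5P3, had 0 to 10 counts per library. FABP3 (chromosome 1, 31838100 to 31845923, minus strand, 4 exons), the heart-type protein, ranged from 1.20 to 2.58 CPM with a median of 1.71 (mean 1.84 ± 0.474). Its highest library was replicate 6, and replicates 2 and 8 were its lowest.

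FABP4 (chromosome 8, minus strand, 4 exons), the adipocyte-type protein that is also abundant in capillary endothelium outside the brain, was nearly absent. It had no counts in replicates 1 and 3, where 3 read pairs would give 0.0880 and 0.0786 CPM, and at most 14 counts (0.166 CPM) in replicate 8. FABP5 took 85.9% ± 3.58 of the summed RPKM of the 3 FABP genes and FABP3 13.6% ± 3.74 (SD, n = 8). FABP5 exceeded FABP3 by a log2 ratio of RPKM of 2.63 ± 0.41 in 8 of 8 libraries (exact sign-flip permutation p = 0.00781, adjusted p = 0.00925, n = 8).

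Among the synthetases, ACSL3 (chromosome 2, 223725732 to 223808119, plus strand, 17 exons), an enzyme of the endoplasmic reticulum and of lipid droplets, ranged from 129 to 229 CPM with a median of 215.5 (mean 192 ± 40.5, SD, n = 8), or 34.5 ± 7.26 RPKM. Replicates 8, 2 and 7 were the lowest at 129, 144 and 162 CPM, and the other 5 lay between 214 and 229 CPM. ACSL4 (chromosome X, 108884564 to 108976621, minus strand, 16 exons), which prefers arachidonic acid and is known for its part in ferroptosis, ranged from 73.9 to 222 CPM with a median of 203 (mean 169 ± 58.9), or 34.6 ± 12.04 RPKM. It was lowest in replicate 8, at 73.9 CPM, and in replicate 2, at 88.6 CPM. Replicate 7 had 146 CPM, and the other 5 libraries lay between 202 and 222 CPM. ACSL1 (chromosome 4, 185676749 to 185747215, minus strand, 21 exons), a main synthetase of liver, heart and fat, ranged from 14.05 to 32.5 CPM with a median of 24.85 (mean 23.8 ± 6.43), or 6.42 ± 1.73 RPKM. Replicates 8 and 2 were again the lowest, at 14.05 and 16.1 CPM, and replicate 5 was the highest. The listed gene SLED1 overlaps it, and how reads in the overlap were assigned is not given in the sources used here.

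ACSL3 took 46.7% ± 4.71, ACSL4 44.7% ± 4.96 and ACSL1 8.58% ± 0.776 of the summed RPKM of the 3 ACSL genes (SD, n = 8). The balance of ACSL3 and ACSL4 differed between libraries: ACSL4 held the larger share in 6 of them, at 46.3% to 48.1%, and ACSL3 in replicates 2 and 8, at 53.6% and 55.0%. Their log2 ratio of RPKM was 0.07 ± 0.31, which was not larger than its spread (exact sign-flip permutation p = 0.516, adjusted p = 0.527, n = 8). On the CQN values, ACSL3 took 52.0% ± 3.86 of its family's sum, and the log2 ratio was 0.375 and past the threshold (exact permutation, adjusted p = 0.00852). ACSL3 was above ACSL4 in every library on the CQN values and on CPM, so the change of lead was seen on RPKM only. Neither of these scales is taken here as a reading per length.

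**Figure D2:**
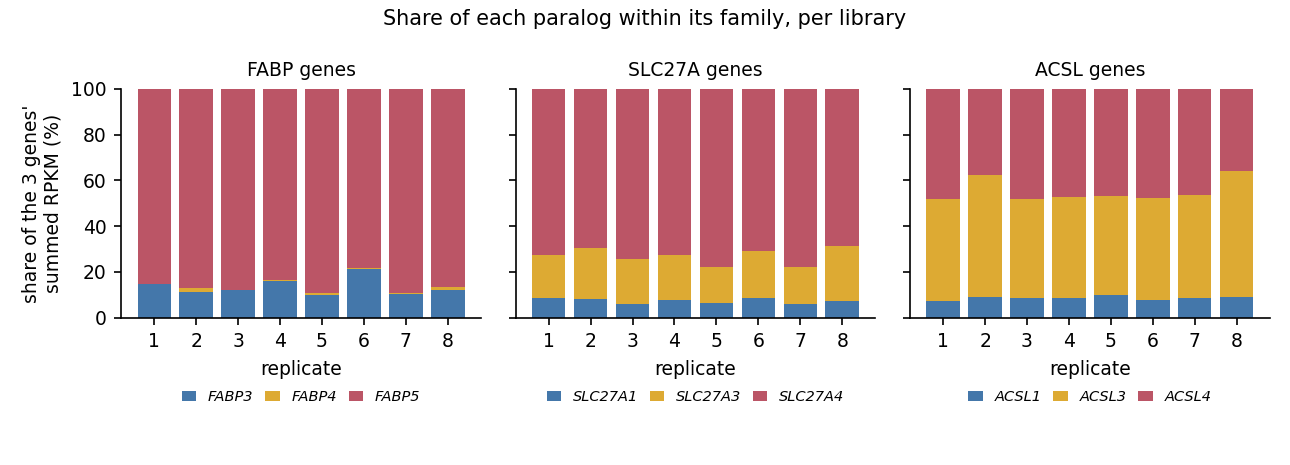
Share of each paralog in the summed RPKM of the 3 members of its family (y axis, percent) in each replicate (x axis). SLC27A4 and FABP5 lead their families in all 8 libraries, while on RPKM the lead passes from ACSL4 to ACSL3 in replicates 2 and 8. On CPM and on CQN values ACSL3 lies above ACSL4 in every library.

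Set side by side, 40 of the 45 pairs of members differed in RPKM (exact two-sided sign-flip permutation, adjusted p under 0.05, n = 8). Mean RPKM of the members ran from 0.0626 (FABP4) to 34.6 (ACSL4), and a share over pairs of all detected genes was not computed. The count is therefore not read as a result about these genes. By the mean of log2(RPKM + 0.1), the order from high to low was ACSL3, ACSL4, SLC27A4, FABP5, ACSL1, SLC27A3, SLC27A1, FABP3, CD36 and FABP4. Of the 9 neighbours in this order, 4 did not differ beyond their spread: ACSL3 and ACSL4, ACSL4 and SLC27A4 (log2 ratio 0.60 ± 0.97, adjusted p = 0.151 in the exact permutation test), ACSL1 and SLC27A3 (0.14 ± 0.94, adjusted p = 0.688), and SLC27A1 and FABP3 (0.36 ± 0.67, adjusted p = 0.237). On the CQN values the pairs ACSL3 and ACSL4, ACSL4 and SLC27A4 (0.494, adjusted p = 0.0248) and SLC27A1 and FABP3 (1.718, adjusted p = 0.00852) did pass the same exact permutation test. CQN ratios between genes are given here as an alternative setting only and are not taken as a reading per length. ACSL3 and SLC27A4, which are 2 places apart, were also not told apart (0.67 ± 0.69, exact permutation p = 0.0469, adjusted p = 0.0514, higher in 6 of 8 libraries). This pair passed without replicate 8 (0.835, adjusted p = 0.0343) and on the CQN values (0.869, adjusted p = 0.00852), by the same exact permutation test. With the union of annotated exons as length the opposite order passed, with SLC27A4 above ACSL3 (-0.697, adjusted p = 0.00925 by that exact permutation test), so the order of these genes depends on the length used. FABP3 exceeded CD36 in 8 of 8 libraries by a log2 ratio of 2.84 ± 0.38 (exact permutation, adjusted p = 0.00925). CD36 and FABP4 were both so low that their difference (higher in 6 of 8 libraries, exact permutation, adjusted p = 0.0439) rests on a few reads, and no fold is given. That call ended without any of replicates 1, 3, 4, 5, 6 or 7 (exact permutation, adjusted p = 0.0686 to 0.0879). Leaving out a library leaves fewer sign patterns, which raises the p by itself. For FABP3 to CD36 the adjusted p of the exact permutation test rose from 0.00925 to 0.0185 in this way. The lost call therefore cannot show that the result rests on those libraries.

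The place of FABP5 depended on the scale used. On CPM, without length correction, its log2 ratio was -1.67 to ACSL1, -0.057 to SLC27A1 and -0.84 to SLC27A3. The CQN ratios of these 3 pairs, given below, lay nearer to CPM than to RPKM. For ACSL1 to SLC27A3 the CQN ratio (0.197) lay nearer to RPKM (0.138) than to CPM (0.828). CQN ratios between genes are therefore not taken as a second reading per length. Its RPKM exceeded that of ACSL1 by a log2 ratio of 0.77 ± 0.50 in 8 of 8 libraries (exact permutation, adjusted p = 0.00925), whereas on the CQN values it lay below ACSL1 by a log2 ratio of -1.29 (adjusted p = 0.00852 in the same exact test). With the union of annotated exons as length the ratio was 0.088 and no longer passed (adjusted p = 0.648, exact permutation). Likewise FABP5 lay above SLC27A3 by 0.90 ± 0.75 on RPKM in 6 of 8 libraries (exact permutation, adjusted p = 0.0361) and below it by a log2 ratio of -1.09 on the CQN values (exact permutation, adjusted p = 0.00852). Leaving out any of replicates 1, 3, 4, 5, 6 or 7 ended the call of the second pair on RPKM (exact permutation, adjusted p = 0.0686 to 0.0721), while its log2 ratio stayed between 0.774 and 0.911. Fewer sign patterns raise the p by themselves, so these lost calls cannot show that the result rests on those libraries. With union exon lengths the log2 ratio of this pair was 0.65 and did not pass (exact permutation, adjusted p = 0.0615). FABP5 exceeded SLC27A1 by 2.266 on RPKM in 8 of 8 libraries (exact permutation, adjusted p = 0.00925), and this call was lost on the CQN values, where the ratio was 0.096 (exact permutation, adjusted p = 0.648). FABP5 has the shortest reference transcript of the members, at 676 nt, against 2298 nt for SLC27A3 and 3712 nt for ACSL1.

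In replicates 2 and 8, the SLC27A genes and the ACSL genes deviated in opposite directions on log2 CPM. On that scale, replicate 8 lay above the gene's mean by 0.68 for SLC27A1, 1.04 for SLC27A3 and 0.62 for SLC27A4, and its deviation was -0.71 for ACSL1, -0.55 for ACSL3 and -1.09 for ACSL4. Replicate 2 showed the same signs for all 6 genes, from 0.35 for SLC27A4 to 0.64 for SLC27A3 and from -0.38 for ACSL3 to -0.83 for ACSL4. In replicate 7 the ACSL genes lay at -0.126, -0.217 and -0.105 for ACSL1, ACSL3 and ACSL4. There SLC27A1 (-0.084) and SLC27A3 (-0.125) lay on the same side, and SLC27A4 (0.249) on the other. The log2 ratio of the summed ACSL RPKM to the summed SLC27A RPKM was between 1.75 and 1.98 in replicates 1, 3, 4, 5 and 6, 1.00 in replicate 7, 0.31 in replicate 2 and -0.18 in replicate 8. The transcripts of the 2 families differ in composition: the reference transcripts of the SLC27A genes have 62.1% to 62.8% GC and 2298 to 3514 nt, and those of ACSL3 and ACSL4 have 37.4% and 36.4% GC and 5577 and 4891 nt. The medians over detected genes were 48.4% GC and 3363 nt. ACSL1 lies between them in GC, at 45.2%.

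On the CQN values these deviations were smaller, and in replicate 2 SLC27A4 and ACSL3, the leading transport protein and a leading synthetase, lay close to their means at -0.014 and -0.041. SLC27A1 and SLC27A3 lay at 0.244 and 0.175 in that library. The deviation of replicate 8 was 0.26 for SLC27A1, 0.44 for SLC27A3, 0.16 for SLC27A4 and -0.09 for ACSL3. It was -0.49 for ACSL4 and -0.47 for ACSL1, and in replicate 2 it was -0.37 for ACSL4 and -0.32 for ACSL1. ACSL4 had CQN values of 6.89 in replicate 8 and 7.01 in replicate 2, against 7.33 to 7.61 in the other 6 libraries, so these 2 libraries were apart from the rest on both scales. The log2 ratio of the ACSL to the SLC27A sum, taken from CQN values returned to the linear scale, ranged from 0.90 in replicate 8 to 1.59 in replicate 4. What set replicates 2 and 8 apart is not given by the labels, and the part of RNA quality in these differences was not tested.

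**Figure D3:**
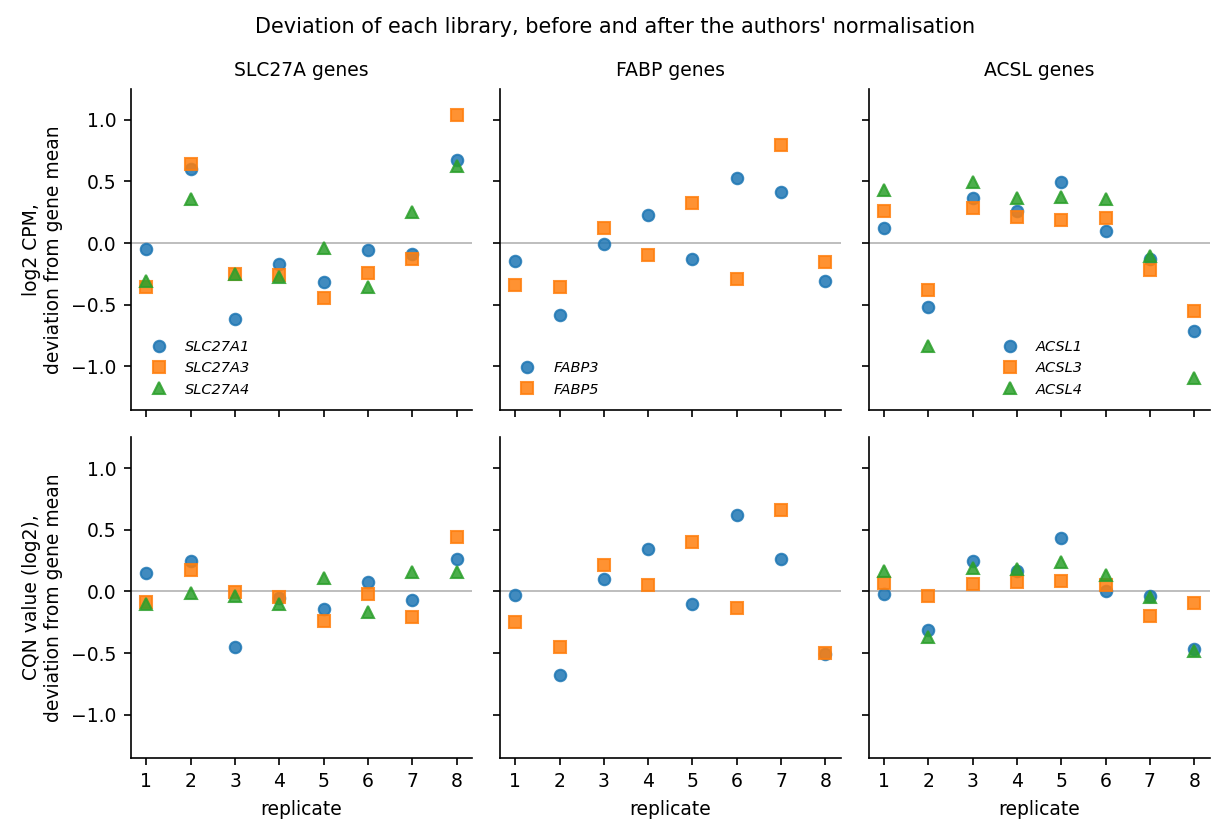
Deviation of each library from the gene's mean (y axis, log2) by replicate (x axis), on log2 CPM in the upper row and on the authors' CQN values in the lower row, for the 8 detected members. In replicates 2 and 8 the SLC27A genes lie above and the ACSL genes below their means on log2 CPM, and on CQN values ACSL1 and ACSL4 keep deviations of -0.47 and -0.49 in replicate 8.

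The FABP genes shared the low values of replicates 2 and 8 on the CQN scale. There FABP3 deviated by -0.678 in replicate 2 and -0.508 in replicate 8, and FABP5 by -0.448 and -0.496, and these were the lowest libraries of both genes, as they were of ACSL1 and ACSL4. On log2 CPM the deviations of FABP5 in these libraries were -0.355 and -0.151, and replicate 1 was also low, at -0.34. FABP5 was highest in replicate 7, by 0.79 on log2 CPM and by 0.66 on CQN values. FABP3 was highest in replicate 6, by 0.53 and 0.62. The spread of ACSL3 over libraries fell from an SD of 0.33 on log2 CPM to 0.10 on CQN values, and that of SLC27A4 from 0.37 to 0.13 (n = 8). The SD of FABP3 was 0.37 on log2 CPM and 0.43 on CQN values, and that of FABP5 was 0.40 and 0.41. Over all detected genes the median SD was 0.28 on log2 CPM and 0.16 on CQN values. On the CQN scale 93.7% of detected genes varied less than FABP3 and 92.8% less than FABP5, while 22.4% varied less than ACSL3. FABP3 had the lowest counts of the detected members, from 108 to 196 per library, so counting error adds more to its spread than to that of the others.

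Whether a member varied more between libraries than genes of the same abundance was tested by the fit of each gene to edgeR's dispersion trend over all detected genes. None of the 8 detected members passed an adjusted p of 0.05, against 4.82% of the 11980 genes tested. Before adjustment 2 members were past 0.05, against 13.3% of genes, namely ACSL4 (edgeR adjusted p = 0.0653) and SLC27A3 (edgeR adjusted p = 0.197). With the lower dispersion trend fitted by DESeq2, which called 23.7% of all genes, 3 members passed: ACSL4 (adjusted p = 1.82e-05), SLC27A3 (adjusted p = 4.48e-04) and ACSL1 (adjusted p = 0.0481). Before adjustment 6 members were past 0.05 on that trend, against 31.5% of genes. With length and GC corrected through offsets from the CQN values, edgeR called 0 members at the adjusted and 0 at the unadjusted threshold, against 6.15% and 11.3% of all genes. The adjusted p of ACSL4 thus ran from 1.82e-05 to 0.474 over the alternatives.

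The other genes of the pathway were read from 8 lists by role, with 95 genes, of which 61 (64.2%, against 51.3% of all listed genes) were detected. Of these, 2 (3.28%, against 4.82% of all detected genes) varied more than the trend. Of 6 other uptake proteins, 4 were detected. CAV1, the coat protein of caveolae, had 315 ± 19.9 RPKM, and GOT2, a mitochondrial aminotransferase also found as a fatty acid binding protein of the plasma membrane, had 69.5 ± 3.87 RPKM (SD, n = 8). MFSD2A had 1.71 ± 0.3 RPKM, below FABP5 and SLC27A4 and near FABP3. The other SLC27A genes were low: SLC27A5 had 0.828 ± 0.233 RPKM, and SLC27A2 and SLC27A6 were not detected.

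Of 13 other binding proteins, 6 were detected, and none of these was a further FABP gene. The acyl-CoA binding protein DBI had 168 ± 30.8 RPKM, and the related ACBD6 and ACBD3 had 36.2 ± 7.76 and 22.05 ± 5.045 RPKM. Of 15 other acyl-CoA synthetases, 5 were detected by the rule. ACSL5, a synthetase of the same family, had 21.1 ± 2.78 RPKM, which lies above the 6.42 ± 1.73 of ACSL1 and below ACSL3 and ACSL4 (values side by side, not tested). ACSS2, which activates acetate, had 16.7 ± 1.12 RPKM, and ACSF2, a medium-chain synthetase, had 10.7 ± 3.28 RPKM. Of 10 thioesterases, which split acyl-CoA again, 7 were detected, led by ACOT7 (70.2 ± 19.6 RPKM), ACOT9 (18.0 ± 1.47) and ACOT8 (15.3 ± 5.12).

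Downstream of activation, 13 of 15 genes of the carnitine shuttle and oxidation were detected, led by ACADVL (167 ± 41.7 RPKM), the dehydrogenase of very-long-chain acyl-CoA, and the trifunctional protein subunits HADHA (101 ± 7.92) and HADHB (70.9 ± 5.00). In the list of glycerolipid synthesis and lipid droplets 13 of 15 genes were detected, led by the droplet coat proteins PLIN2 (92.7 ± 15.9 RPKM) and PLIN3 (48.5 ± 5.99) and by the acyltransferase AGPAT2 (44.6 ± 15.9). Among lipases and their partners 7 of 10 were detected. ANGPTL4, a secreted inhibitor of lipoprotein lipase, had 146 ± 46.9 RPKM, the triglyceride lipase PNPLA2 had 43.3 ± 18.8 RPKM and MGLL, the monoglyceride lipase, had 18.95 ± 4.60 RPKM, whereas LPL itself was not detected (0.254 ± 0.0715 CPM). Of 11 transcriptional regulators 6 were detected, led by RXRB (19.8 ± 2.96 RPKM), RXRA (13.9 ± 1.96) and PPARD (11.1 ± 0.967). PPARG, a regulator of CD36 and FABP4 in fat cells and macrophages, was not detected by the rule (1.12 ± 0.242 CPM), nor were MEOX2 (0.0243 ± 0.0285 CPM) and TCF15 (0.117 ± 0.0733 CPM), known for driving fatty acid uptake in heart endothelium.

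**Figure D4:**
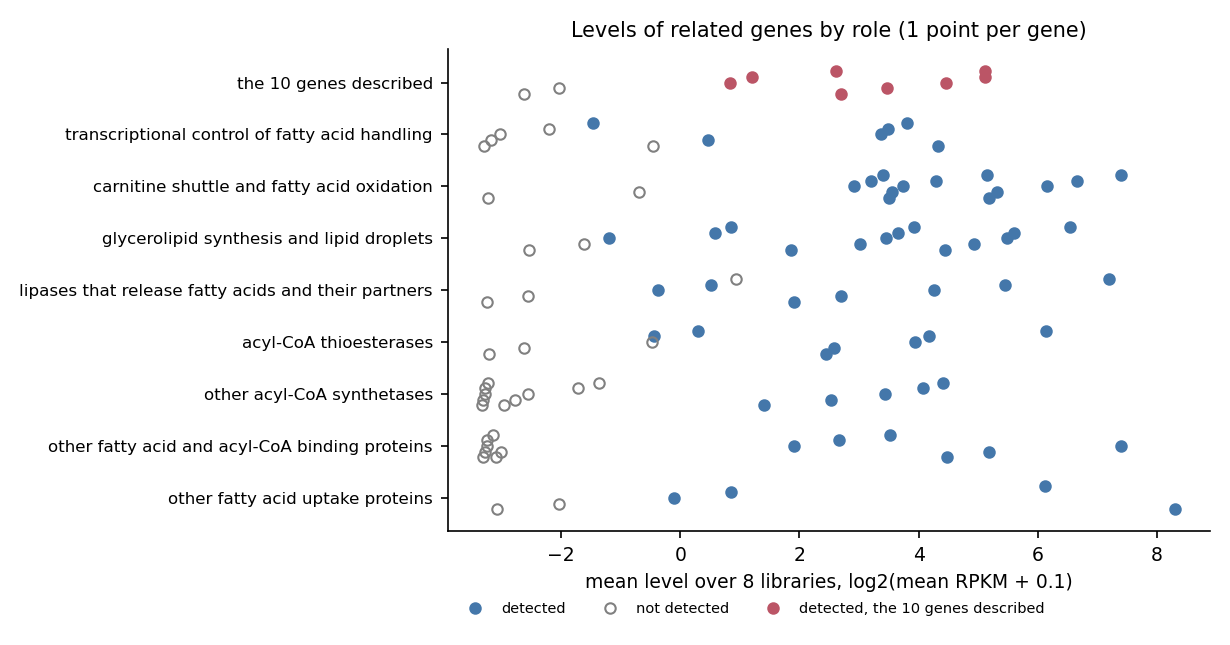
Mean level of each gene over the 8 libraries as log2(mean RPKM + 0.1) on the x axis, with 1 row of points per list and open circles for genes that were not detected. The row of the 10 genes described has 8 detected members and 2 far to the left, CD36 and FABP4.

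The labelled cell type was checked with marker lists, to be read beside the 51.3% of all listed genes that were detected. All 10 endothelial markers were detected, with CDH5 at 160 ± 37.5 RPKM the highest of the 9 that had a transcript length (PECAM1, at 402 ± 118 CPM, had none), and 8 of 10 barrier markers were, with CLDN5 highest at 90.4 ± 53.6 RPKM. Levels of 2 barrier markers varied more than the trend: CLDN5 ranged from 71.5 to 252 CPM and TFRC, the transferrin receptor, from 127 to 544 CPM. These ranges are on CPM only, and the part of transcript length and GC content in them was not tested. SLCO1C1 and LEF1 were the barrier markers that were not detected. The lowest detected endothelial and barrier markers by RPKM were EMCN (1.81 ± 0.441) and MFSD2A (1.71 ± 0.3). Of 8 adipocyte markers 1 was detected (LIPE, 1.33 ± 0.348 RPKM), and their summed level was 4.74 to 8.94 CPM. LIPE, like the barrier marker MFSD2A, also stands in a pathway list. Of 8 macrophage and microglia markers 2 were detected, with the lysosomal gene CD68 at 34.5 ± 7.74 RPKM and MARCO at 0 in all libraries. Of 8 mural cell markers 5 were detected, not far above the 51.3% share, with ANPEP highest at 31.3 ± 3.88 RPKM. Their summed level was 163 to 189 CPM, most of it from ANPEP (mean 114.5 CPM) and CSPG4 (mean 32.9 CPM). PDGFRB, RGS5 and ACTA2 had 1.68, 2.54 and 3.51 RPKM, and KCNJ8, DES and NOTCH3 were not detected. The part of other cell types in the members' levels was not tested.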

How the data were processed

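The authors deposited 1 table of the series, holding gene symbols, positions and, per library, a column of counts and a column of CQN values, per the file headers. The deposited counts were whole numbers per gene, not normalised, and all 186768 were even, so tests used halved counts (read pairs). The authors' CQN values (conditional quantile normalisation) were read as log2, as judged from the deposited values. They covered 13962 genes, FABP4 not among them, and their parameters are not given in the sources used here. The build hg19, CASAVA 1.9, TopHat2 2.0.6 and HTSeq are named in the submitters' processing notes without a role, and use of strand is not given. Libraries were polyadenylated RNA made with a TruSeq RNA kit, per the labels' protocols. Table starts count from 0 and are printed 1-based.

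CPM used TMM-scaled library sizes (edgeR 4.0.16, R 4.3.3). RPKM divided CPM by the canonical transcript's length in GENCODE 44 lifted to GRCh37, which 96.7% of detected genes had. Pairs of members were compared by within-library differences of log2(RPKM + 0.1), with the exact sign-flip test over 256 sign patterns, Benjamini-Hochberg adjusted over 45 pairs. Variation was tested by edgeR's gof function with trended dispersions, adjusted over all detected genes. On simulated counts with the real means, it called 0 of 11980 genes with none changed, and 174 of 200 genes raised 4-fold in 1 library. The simulation cannot show how often the test calls unchanged genes in the real libraries, which differed with transcript length and GC content. DESeq2 1.42.0 gave alternative size factors and an alternative trend. Promoters came from RefSeq on GRCh38.p14 (8 of 10 members used). All 16 value columns matched a sample by replicate number.

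The named genes were the 10 members, in each pathway list the 3 highest detected genes by RPKM and any gene above the trend, the highest gene of each marker list and, per detected member, the gene with the most similar CQN values. Others, such as SLC27A5, LPL, PPARG, MEOX2, TCF15, SLCO1C1, LEF1, PECAM1, TFRC, EMCN, MARCO and the lower mural cell markers, were named after their values were seen. The members and lists were chosen with earlier results of these data known. With 1 group, no test between groups was made. At this depth counting error is small for the members other than CD36, FABP3 and FABP4. Floors cover counting error only, because PCR copies were not marked by molecular identifiers.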

Additional observations from a re-analysis of the deposited data

How the results depend on the processing

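The summed CPM of the 10 members (487 ± 79.4, SD, n = 8) was 488 with total counts, 487 with DESeq2 size factors and 476 to 504 without a library. Leaving out 1 of 8 values can move a mean only by a fraction of its SD, so that last range says nothing about stability. The number of detected members was 8 under each scaling and 9 with a minimum of 10 counts, where CD36 was added. That looser rule also raised the number over all 23346 listed genes, from 11980 to 14671. No member varied more than the trend under the edgeR trend (577 of 11980 genes did). With the DESeq2 fitted trend 3 members did, beside 2840 of all genes. With total counts as library sizes 1 did (ACSL4, edgeR adjusted p = 0.0498), beside 597 of all genes. The number of members was 0 when any library was left out, beside 359 to 498 of all genes. The calls of pairs numbered 43 of 45 on CPM, 34 of 36 on CQN values, 40 with a pseudocount of 1, 38 with the union of all annotated exons as length (an alternative added after seeing the data), and 38 to 41 without a library. Without a library the exact test has fewer sign patterns, so calls near the threshold can end for that reason alone. Some log2 ratios changed sign. FABP5 to SLC27A1 became -0.057 on CPM. FABP5 to SLC27A3 became -0.84 on CPM and -1.09 on CQN values, and FABP5 to ACSL1 became -1.67 and -1.29. With union exon lengths SLC27A1 to FABP3 became -0.45, ACSL3 to SLC27A4 -0.70 (called in the opposite direction), ACSL4 to SLC27A4 -0.42 and ACSL3 to ACSL4 -0.28, and without a library ACSL3 to ACSL4 ran from -0.012 (without replicate 8) to 0.096. These changes follow from the length each setting divides by, except the last and those on CQN values, where the cause was not tested. Family shares moved beyond their SD for FABP5 (79.1% on CPM, 77.5% on CQN values), SLC27A4 (76.9% on CPM) and ACSL3 (52.0% on CQN values). No paired analysis was possible because there is 1 group.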

Other observations

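The 2 genes of the pathway lists that varied more than the trend are 3.28% of those detected, a share below the 4.82% of all detected genes, and are given as values only. ECI1, an isomerase of fatty acid oxidation, was highest in replicate 8 and next in replicate 2, at 79.1 CPM, against 34.2 to 57.6 CPM in the others (edgeR adjusted p = 0.0406). On the CQN scale ECI1 lay between 6.795 and 6.901 in all 8 libraries, and replicates 2 and 8 did not stand apart. LIPG, the endothelial lipase of the cell surface, had 17.4 and 14.1 CPM in those libraries and 38.4 to 52.4 CPM in the others (edgeR adjusted p = 0.0183). Its CQN values were 4.799 in replicate 8 and 4.432 in replicate 2, against 5.541 to 6.196 in the others, so these libraries were low on both scales.

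The gene most like each detected member over the 8 libraries, among 11979 others, is given as a description of CQN values that share library and normalisation, with Pearson's r as the measure. For ACSL4 it was MACF1 (0.997), whose CQN value was 8.55 in replicate 8, 8.68 in replicate 2 and 8.97 to 9.24 in the others. For ACSL1 it was POP7 (0.993), for ACSL3 FAF2 (0.978), for SLC27A1 LMOD1 (0.972), for SLC27A3 MGAT4A (0.992), for SLC27A4 GOSR2 (0.987), for FABP3 MGC72080 (0.951) and for FABP5 URB2 (0.993). In the MACF1 profile, as in that of ACSL4, replicates 8 and 2 were the lowest on the CQN scale. URB2, like FABP5, was highest in replicate 7, at 5.93, and next in replicate 5, at 5.76. Each gene was picked as the highest r of 11979 over only 8 libraries, so such likeness follows from the choice.

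Values of the 19 sets of 8 libraries (CPM of the 10 members, CQN values of 9) held 0 single libraries whose gap to the nearest other, relative to the range, was above Dixon's critical value. That ratio looks at 1 library at an end and cannot show 2 that lie together, as replicates 2 and 8 do for ACSL4.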
